A study of Mus musculus with 8 samples.

Results

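Long 3′ untranslated region pairs are genes whose last exon has a proximal and a distal cleavage and polyadenylation site more than 2000 bases apart. They were chosen from the table of 3′-most exons by the distance between the listed positions and by a mean of 20 or more reads at both sites together over the 8 libraries. This gave 1760 of the 7951 listed pairs, and all 1760 were tested. No value of the comparison between genotypes entered this rule, but the members were chosen with earlier results of these data known. The samples were total brain of 5 mice carrying Cstf2D50A and of 3 wild-type mice, all on a C57BL/6NCrl background and killed at 50 days after birth. Per the labels, both genotypes came from a colony made congenic by backcrossing, wild types were littermates, and no animal was treated. D50A replaces an aspartate of CSTF2 by alanine in every tissue, so no promoter or Cre restricts it, and whole brain mixes all of the brain's cell types. The libraries sample the 3′ ends of polyadenylated mRNA, and each read was taken as 1 transcript end.

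When a transcript can be cut at either of 2 sites in its last exon, the protein stays the same and the length of its 3′ untranslated region changes. Use of the distal site keeps the stretch between the sites in the mRNA, where RNA-binding proteins and microRNAs can act on stability, localisation and translation. Neurons are known for long 3′ untranslated regions and for use of distal sites. CSTF2 is the subunit of the cleavage stimulation factor that contacts the U- or GU-rich element downstream of the cut through its RNA recognition motif, which holds residue 50. The comparison asks whether the choice of site differs in the mutants when the sites lie far apart.

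The libraries held between 9616953 and 17530761 reads at the listed sites, of which the long pairs took between 14.9% and 15.9%. Neuron, astrocyte and oligodendrocyte markers were present in all libraries. Libraries stood apart in 2 ways. The mean level of 11 measured cerebellar neuron markers, none of them at 0, was between 5.49 and 5.62 log2 CPM in mutants 1 to 4 and 7.68 in mutant 5, against 7.66 to 7.85 in wild types (CPM is reads scaled to a library size of 1e6). Of these 11 genes 7 had an unadjusted edgeR p under 0.05 for a lower level in mutants, beside 7.05% of all tested pairs, and none was called by edgeR. Cbln3, a granule cell gene that is itself a long pair, had 0.66, 1.17, 0.81, 0.30 and 8.09 log2 CPM in mutants 1 to 5, against 8.45, 8.26 and 8.18 in wild types 1 to 3. In 4 mutants these markers were thus far below wild type, and in 1 they were at its level. Second, the first principal component of the site ratios of long pairs with a mean of 100 or more reads held 63.6% of their variance. It placed mutants 1 to 5 at -22.8, -17.7, -3.59, -17.0 and 16.6, against 22.6, 26.5 and -4.67 in wild types 1 to 3, so that mutant 5 lay with wild types 1 and 2 and wild type 3 lay among the other mutants, although its cerebellar markers stood at 7.69. In bulk tissue, fewer cells of a type and less RNA per cell cannot be told apart. Oligodendrocyte markers (14 measured) lay between 6.13 and 6.52 log2 CPM in mutants, against 5.89 to 6.22 in wild types, astrocyte markers (8) 8.90 to 9.04 and 8.98 to 9.07, microglia markers (5) 5.30 to 5.62 and 5.29 to 5.55, and neuron markers (10) 8.55 to 8.99 and 8.09 to 8.74. Neuron markers stood at 8.99, 8.91, 8.70, 8.96 and 8.55 in mutants 1 to 5, against 8.09, 8.35 and 8.74 in wild types 1 to 3, with mutant 5 the lowest mutant and wild type 3 the highest wild type. Endothelial and pericyte markers (4) averaged 5.52 to 6.21 in mutants and 5.15 to 5.77 in wild types, and choroid plexus and ependyma markers (2) 6.18 to 6.60 and 6.32 to 7.02. Over the 14 oligodendrocyte markers the median log2 change in level was -0.07, so the list did not move in 1 direction. At an unadjusted edgeR p under 0.05, 5 oligodendrocyte markers were higher and 1 lower in mutants, beside 7.29% and 7.05% of all tested pairs. Neuron markers had 2 higher and 0 lower, astrocyte markers 1 and 2, and microglia markers 1 and 0. The remaining lists had 0 in both directions.

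Between 2001 and 50000 bases, the median share of the distal site was lower in each class of longer distance. The sites lay a median of 3314.5 bases apart (quartiles 2516.25 and 4838), with 1352 pairs at 2001 to 5000 bases, 320 at 5001 to 10000, 84 at 10001 to 50000 and 4 beyond 50000. The median distal share, which is the percentage of a pair's reads at the distal site, was 48.9 ± 1.71% in mutants and 47.1 ± 1.08% in wild types at 2001 to 5000 bases (SD, n = 5 and 3). At 5001 to 10000 bases it was 43.5 ± 1.29% in mutants and 42.6 ± 1.34% in wild types, and at 10001 to 50000 bases 19.6 ± 2.81% and 19.0 ± 1.67%. This order held in each of the 8 libraries, but the 4 pairs beyond 50000 bases had a median of 42.9 ± 2.05% in mutants and 41.9 ± 1.71% in wild types. Pairs at most 2000 bases apart had a median of 57.3 ± 1.99% in mutants and 54.4 ± 1.66% in wild types. Both extremes were common among the long pairs: averaged over the 8 libraries, 350 had under 10% of their reads at the distal site and 269 had 90% or more, while 584 lay between 10% and 50% and 557 between 50% and 90%. These are descriptions of the listed sites, with no test, and the classes differ in depth, with median mean reads of 377.75 at 2001 to 5000 bases and 285.625 at 10001 to 50000.

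**Figure D1:**
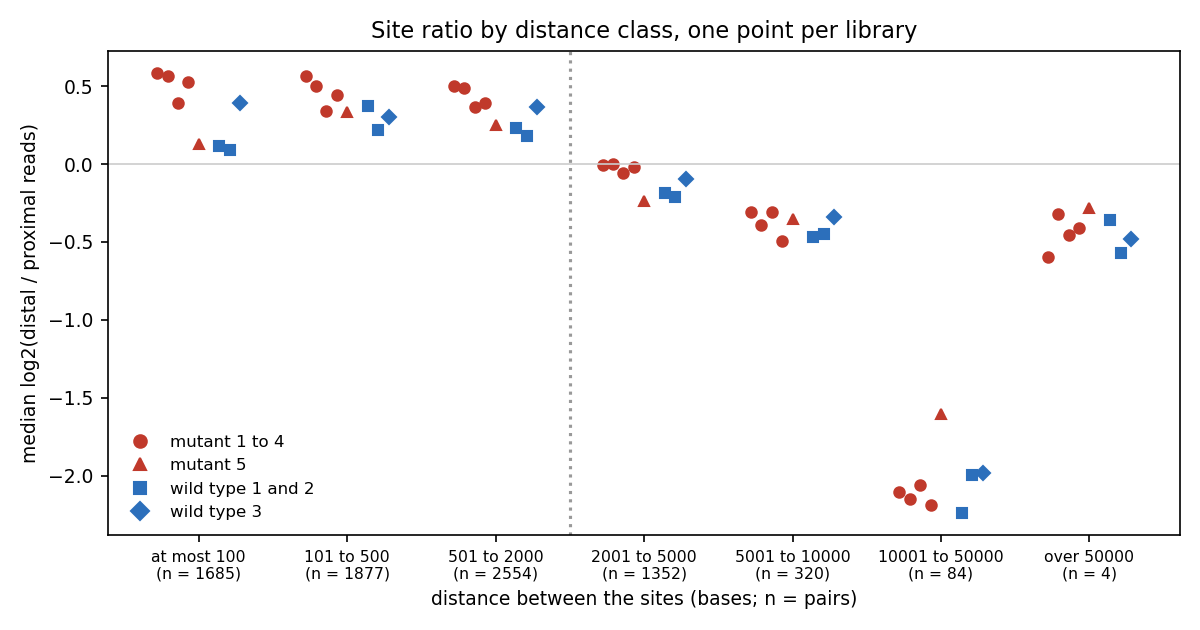
Median of log2 distal over proximal reads (vertical axis) in each library for 7 classes of distance between the sites in bases (horizontal axis, with the number of pairs); each point is 1 library, red for mutants and blue for wild types. The medians of all libraries are above 0 at 2000 bases or less, near or below 0 at 2001 to 5000 bases, and between -2.24 and -1.60 at 10001 to 50000 bases, where mutant 5 is the highest.

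Positions were checked for signs that a pair does not lie within 1 last exon. Of 1396 long pairs with a strand in the RefSeq tables (GRCm38.p6, used for names, chromosome, strand and gene span but not for positions), the distal site lay downstream of the proximal one in 1391. A listed site of another gene lay at or between the 2 sites in 130 of 1755 long pairs with a chromosome (7.41%), against 3.40% of pairs at most 2000 bases apart. That share was 6.09% at 2001 to 5000 bases, 10% at 5001 to 10000 and 19% at 10001 to 50000, where 16 of 84 pairs enclosed such a site. The distance exceeded the span of the whole gene in 68 long pairs, 26 of them at 2001 to 5000 bases. Some pairs share their counts: 8 carried counts identical to those of a second symbol in all libraries, namely Cmc4 and Mtcp1, Entpd4 and Entpd4b, Gm9938 and Ptar1, and Ddi2 and Rsc1a1, and cannot be assigned to 1 gene. Rsc1a1 is also among the pairs that enclose a site and among those longer than the gene. Without all these and the 4 pairs beyond 50000 bases, 1566 long pairs were left. Pairs with no strand in RefSeq were kept among them, so the order of their sites was not checked.

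For 930 long pairs the second table gives a count for the whole 3′-most exon. In all 930 it was no lower than the pair's own reads, with a median ratio of 1.08, against 1.04 for pairs at most 2000 bases apart. It exceeded the pair's own reads more than 2-fold in 14 long pairs (1.51%), and the upper quartile of the ratio was 1.23. The share of reads ending in an upstream exon had a median of 5.48% in these 930 genes and 3.92% in the nearer pairs. It was 8.45% at 5001 to 10000 bases and 8.70% at 10001 to 50000.

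Between the genotypes, no long pair passed edgeR's quasi-likelihood test of site usage after Benjamini-Hochberg adjustment over all 7876 tested pairs, where the background was 0%. DESeq2 called Ugt8a and Rgs7bp toward the distal site and Abt1 toward the proximal site, against a background of 0.19% and 0.0762% of all pairs, and limma called none (background 0%). At an unadjusted edgeR p under 0.05, 154 long pairs had relatively more distal reads in mutants and 83 had fewer, which is 8.75% and 4.72% beside 8.67% and 4.25% of all tested pairs (13.5% beside 12.9% in either direction). The genotypes did not overlap in 44 long pairs with more and 31 with fewer distal reads in mutants, or 2.5% and 1.76%, beside 2.53% and 1.63% of all pairs (4.26% beside 4.15% in either direction). Of the 1566 pairs in which the annotation checks found no doubt, 136 and 73 had an unadjusted p under 0.05 (8.68% and 4.66%). All of these shares lie near the background.

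The median log2 change in usage, where a positive value means relatively more distal reads in mutants, was 0.10 over the long pairs and 0.12 over all pairs, and 57.0% of long pairs lay above 0 beside 59.2% of all. It was 0.11 at 2001 to 5000 bases, 0.10 at 5001 to 10000 and 0.04 at 10001 to 50000. The standard error of a single pair's change had a median of 0.349. The median over the long pairs of log2 distal over proximal reads was -0.18, -0.24, -0.16, -0.18 and -0.33 in mutants 1 to 5, against -0.34, -0.35 and -0.20 in wild types 1 to 3. Mutant 5 lay between wild types 2 and 1 on one side and wild type 3 on the other, and wild type 3 lay among mutants 1 to 4, so the genotypes overlapped. The mean was -0.22 ± 0.0709 in mutants and -0.30 ± 0.0876 in wild types (SD, n = 5 and 3), a difference of 0.0789, beside 0.145 over all tested pairs.

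**Figure D2:**
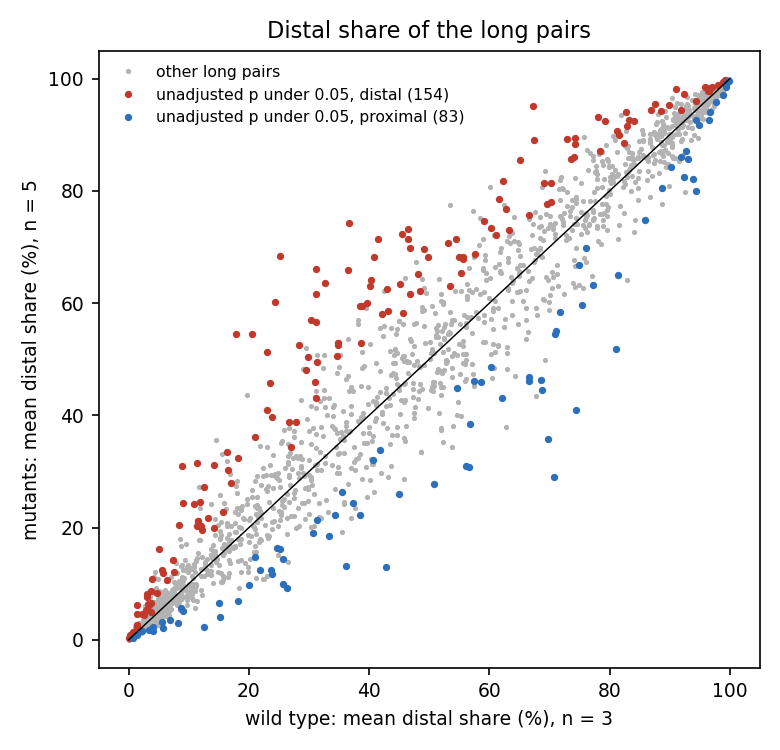
Mean distal share in mutants (vertical axis, %, n = 5) against wild types (horizontal axis, %, n = 3) for the 1760 long pairs, each a point; the line marks equality. The 154 red points (more distal reads in mutants) and 83 blue points (fewer) have an unadjusted edgeR p under 0.05, and they lie along the whole range of shares on both sides of the line.

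Within these pairs the position of mutant 5, which had wild-type cerebellar marker levels, was counted. In the 154 pairs with more distal reads in mutants, mutant 5 was the mutant nearest to wild type in 126 and lay within the wild-type range in 108. In the 83 pairs with fewer these counts were 68 and 56. Wild type 3 was the wild type nearest to the mutants in 128 of the 154 and 70 of the 83. Such positions were not counted over all tested pairs, so whether they are particular to these long pairs was not tested. With the cerebellar marker level as a covariate, edgeR left 13 long pairs with more and 16 with fewer distal reads in mutants at an unadjusted p under 0.05, with a median log2 change of 0.00484, and again called none. These are 0.739% and 0.909% of the long pairs, beside 0.762% and 0.724% of all pairs in that fit. Mutant 5 is the 1 mutant with a wild-type level of these markers, so that fit rests on it. Without mutant 5 the counts were 308 and 184, and without wild type 3 they were 283 and 164, each with 0 calls among the long pairs. These are 17.5% and 10.5%, beside 18.7% and 8.98% of all pairs, and 16.1% and 9.32%, beside 15.9% and 8.49%. For mutants 1 to 4, genotype and cerebellar content cannot be told apart.

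**Figure D3:**
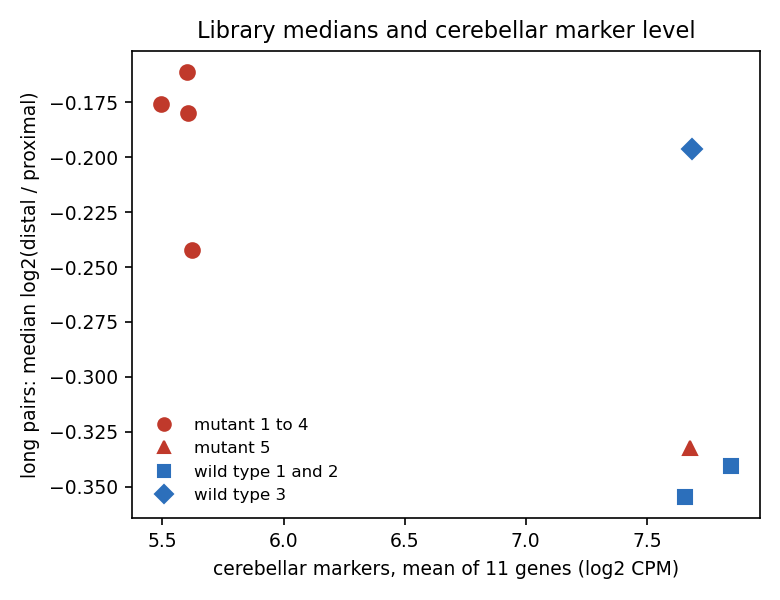
Median of log2 distal over proximal reads over the 1760 long pairs (vertical axis) against the mean level of 11 cerebellar neuron markers (horizontal axis, log2 CPM), 1 point per library. Mutants 1 to 4 sit at 5.49 to 5.62 log2 CPM and -0.24 to -0.16, mutant 5 at 7.68 and -0.33 beside wild types 1 and 2, and wild type 3 at 7.69 and -0.20.

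Among the 10 long pairs with the smallest p toward the distal site were a myelin enzyme, an axon guidance receptor, dystrophin and a ribosomal protein. Ugt8a, which makes the galactolipids of myelin, had distal shares of 6.49, 8.18, 6.89, 5.80 and 3.61% in mutants 1 to 5, against 1.08, 1.00 and 2.11% in wild types 1 to 3 (log2 change 2.19, SE 0.35, edgeR adjusted p = 0.337). Every mutant lay above every wild type, with mutant 5 the lowest of them, and its sites are 4701 bases apart, at 125568428 and 125563727 on build mm9 as the files list them. Emc7, a subunit of the membrane protein insertase of the endoplasmic reticulum, had 20.3, 18.9, 20.3, 20.2 and 22.0% in mutants, against 11.2, 13.4 and 11.5% in wild types (log2 change 0.90, SE 0.21). Robo2, a receptor for the guidance cue Slit, had 21.5, 19.3, 20.9, 19.7 and 19.6% in mutants, against 7.95, 12.8 and 13.1% in wild types (log2 change 0.94, SE 0.257). In Emc7 mutant 5 was the highest of all libraries and in Robo2 it lay within the range of the other mutants.

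The groups were also apart in Mfap1a, Dmd, Ndufaf5 and Jcad. Mfap1a, a component of the spliceosome, had 16.9, 15.6, 15.0, 21.0 and 12.7% in mutants, against 1.62, 3.55 and 10% in wild types (log2 change 1.87, SE 0.471). Dmd, which encodes dystrophin, had 83.2, 94.0, 89.8, 81.1 and 80.0% in mutants, against 65.4, 57.3 and 72.7% in wild types (log2 change 1.71, SE 0.451). It rests on few reads, between 80 and 132 per library, and an upstream exon held 71.6% of the gene's reads in the second table. Ndufaf5, an assembly factor of respiratory complex I whose sites are 15329 bases apart, had 4.86 to 9.43% in mutants and 2.30 to 4.19% in wild types (log2 change 1.38, SE 0.321). Jcad, a protein of endothelial cell junctions, had 97.3 to 99.1% in mutants and 94.0 to 97.0% in wild types (log2 change 1.59, SE 0.398).

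In the last 3 of the 10 the groups overlapped. Rgs7bp, which anchors a G protein regulator at the membrane, had 98.3, 97.3, 93.4, 98.5 and 88.1% in mutants, against 66.2, 45.1 and 90.4% in wild types (log2 change 3.45, SE 0.905, DESeq2 adjusted p = 0.026). Wild type 3 exceeded mutant 5. Elk4, a transcription factor of the ETS family, had 84.5 to 92.2% in mutants and 48.6 to 85.6% in wild types (log2 change 1.85, SE 0.525). Rpl28, a protein of the large ribosomal subunit, had 88.2 to 95.2% in mutants and 60.6 to 89.1% in wild types (log2 change 1.86, SE 0.512), and its sites lie farther apart than its gene is long, and whether the distal one is its own was not tested. For the 9 pairs other than Ugt8a edgeR's adjusted p was 0.380. With the cerebellar covariate, 9 of the 10 changes lay nearer to 0, 6 of them by over 1.5 times, and edgeR's adjusted p was 1.00 for all. The log2 change was then 1.38 for Ugt8a, 0.71 for Ndufaf5, 0.44 for Jcad, 1.41 for Rgs7bp, 0.95 for Rpl28 and 1.19 for Elk4. It moved less for Mfap1a (1.34), Dmd (1.15) and Robo2 (0.86), and for Emc7 it was 1.04. These pairs were picked by the fit without the covariate, and the fit with it rests on mutant 5. The move is therefore not an independent result. The same move was not counted over all tested pairs, and its cause was not tested.

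Toward the proximal site, the 10 pairs with the smallest p included a transcription cofactor, an ephrin receptor, an RNA-binding protein and a ubiquitin ligase adaptor. Abt1, an activator of basal transcription, had distal shares of 18.3, 13.3, 25.2, 29.2 and 59.0% in mutants 1 to 5, against 79.2, 72.0 and 61.0% in wild types 1 to 3 (log2 change -2.67, SE 0.652, DESeq2 adjusted p = 0.0369, edgeR adjusted p = 0.380). Mutant 5 lay next to wild type 3 and far from the other mutants, and the pair rests on a mean of 100.4 reads per library. Epha5, a receptor of axon guidance, had 9.24, 6.93, 8.62, 11.1 and 13.6% in mutants, against 28.6, 31.0 and 17.6% in wild types (log2 change -1.62, SE 0.411), with 21 to 119 reads. Rbmx, a nuclear RNA-binding protein, had 2.08, 1.88, 3.05, 2.71 and 5.17% in mutants, against 7.14, 12.3 and 5.42% in wild types (log2 change -1.54, SE 0.402). In Epha5 and Rbmx mutant 5 was the highest mutant and wild type 3 the lowest wild type.

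The groups were also apart in Klhl7, Appl1 and Rasgrf2. Klhl7, which brings substrates to a cullin ubiquitin ligase, had 73.7, 70.2, 71.6, 78.1 and 80.4% in mutants, against 84.1, 90.5 and 83.4% in wild types (log2 change -1.06, SE 0.284). Appl1, an adaptor of early endosomes, had 81.0 to 88.2% in mutants and 88.4 to 91.6% in wild types (log2 change -0.77, SE 0.224). Rasgrf2, an exchange factor for Ras, had 99.1 ± 0.0929% in mutants and 99.4 ± 0.0797% in wild types (SD, n = 5 and 3), a narrow gap on a mean of 4305 reads (log2 change -0.66, SE 0.187). The groups overlapped in the other 4. Xpo6, the exportin of actin, had 6.31 to 15.4% in mutants and 12.7 to 35.8% in wild types, and Csnk2a2, a catalytic subunit of casein kinase 2, 1.87 to 8.59% and 7.69 to 25%. Csnk2a2 had only 7 to 13 distal reads per library, and an upstream exon held 72.0% of its reads in the second table. Its level was higher in mutants (DESeq2 log2 change 1.86, DESeq2 adjusted p = 0.0384, edgeR adjusted p = 0.343). Srpr, a subunit of the signal recognition particle receptor, had 20 to 58.9% in mutants and 56.0 to 87.3% in wild types, but its sites lie farther apart than its gene is long. Lgi2, a secreted leucine-rich repeat protein, had 96.0 to 98.6% in mutants and 98.6 to 98.9% in wild types. For each of these 10 pairs edgeR's adjusted p was 0.380. With the cerebellar covariate all 10 changes lay nearer to 0 by over 1.5 times, and edgeR's adjusted p was 1.00 for all. The log2 change was then -0.69 for Abt1, -1.0 for Epha5, -0.65 for Rbmx, -0.65 for Klhl7, -0.79 for Xpo6 and -0.42 for Rasgrf2. For Appl1 it was -0.29, for Srpr -0.77, for Lgi2 -0.17 and for Csnk2a2 -0.58. As on the distal side, the pairs were picked by the fit without the covariate, so the move is not an independent result. Its cause was not tested.

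**Figure D4:**
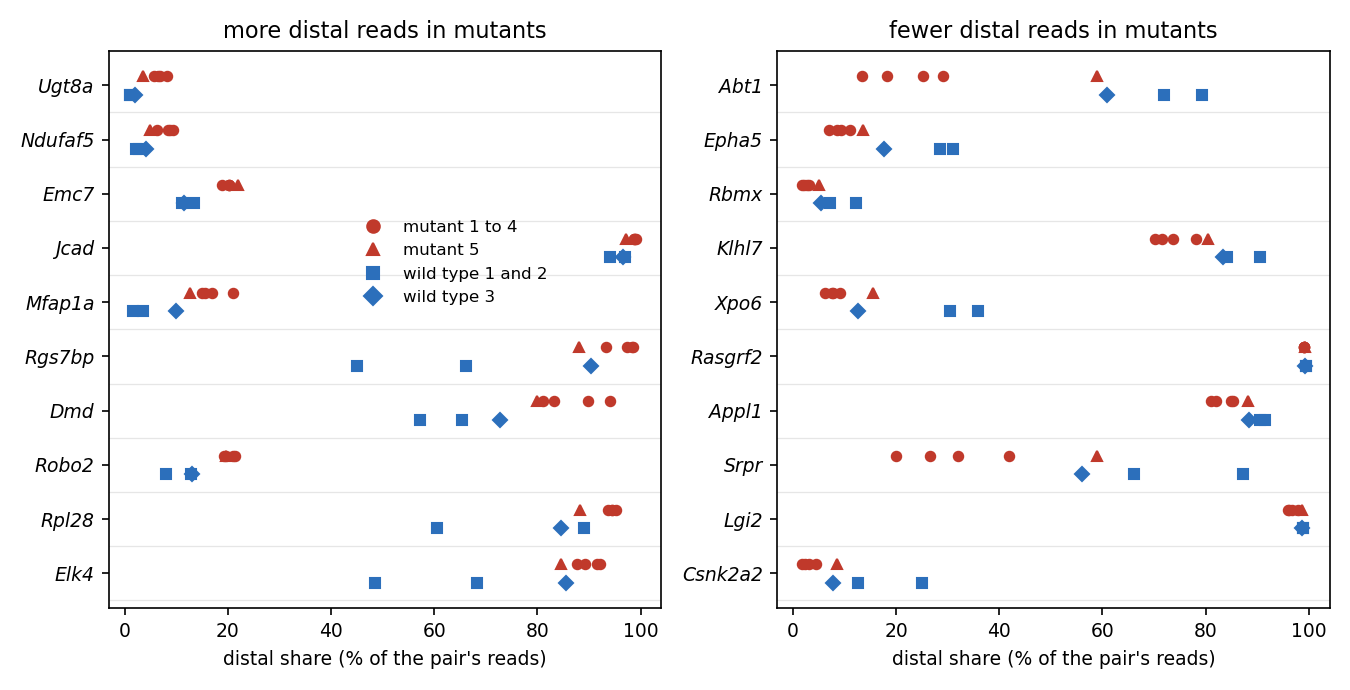
Distal share (horizontal axis, % of the pair's reads) of the 20 long pairs with the smallest edgeR p, 10 with more distal reads in mutants (left) and 10 with fewer (right); in each row the upper, red symbols are the 5 mutants and the lower, blue ones the 3 wild types. Mutant 5 (triangle) is the mutant nearest to wild type in most rows but is the highest library in Emc7, and wild type 3 (diamond) is often the wild type nearest to the mutants.

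Most of the long pairs with the most reads had overlapping shares in the genotypes. Cbx6, of a Polycomb complex and with a mean of 41307.5 reads, had 85.4 ± 2.32% in mutants and 86.5 ± 0.940% in wild types, and Gabbr1, a subunit of the GABA-B receptor, 1.89 ± 0.212% and 1.76 ± 0.150% (SD, n = 5 and 3). Map2, the microtubule protein of dendrites, used its distal site for 99.9% of reads in each library. Rps12, of the small ribosomal subunit, had 0.439 ± 0.0921% in mutants and 0.402 ± 0.0299% in wild types, and its sites lie farther apart than its gene is long. Snhg11, a long noncoding RNA, had 85.5 to 88.4% in mutants and 88.4 to 89.4% in wild types, with every mutant below every wild type by a small margin (log2 change -0.24, SE 0.13). The remaining values in this paragraph overlapped between the groups.

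Genes were then grouped by role, and edgeR called no member of any group in usage. A pair is called nominally distal or nominally proximal where its unadjusted edgeR p was under 0.05 in that direction. For ion channels, 25 long pairs were measured, 1 nominally distal and 1 nominally proximal, at a median log2 change of 0.19. Those with the most reads were Scn2b, a sodium channel subunit, with 97.8 ± 0.208% in mutants and 97.9 ± 0.529% in wild types, and Clcn3, a chloride-proton exchanger of endosomes, with 70.4 to 84.6% and 65.5 to 81.8%. Kcnn3, a calcium-activated potassium channel, named like the next genes after its values were seen, had 58.3, 58.0, 62.7, 57.7 and 38.5% in mutants, against 66.7, 80.6 and 66.2% in wild types. Mutant 5 was the lowest here, farther from wild type than the others, on a mean of 71.4 reads.

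Among transmitter receptors and postsynaptic scaffolds, 20 long pairs had a median of -0.15, with 2 nominally distal and 2 nominally proximal. Gabrg1, a subunit of the GABA-A receptor, had distal shares of 4.38, 4.40, 16.0, 7.80 and 32.0% in mutants, against 61.9, 51.7 and 14.7% in wild types (log2 change -2.60, SE 0.894). In Gabrg1 mutant 5 lay inside the wild-type range and wild type 3 inside the mutant range. Dlgap1, a scaffold protein of excitatory synapses whose sites lie 2002 bases apart, had 93.7, 93.1, 88.8, 89.8 and 75.4% in mutants, against 81.1, 69.6 and 87.6% in wild types.

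Synaptic vesicle and release genes (20 long pairs, median 0.10) held 2 nominally distal and 1 nominally proximal pair. Rims4, of the presynaptic active zone, had 98.2 ± 0.596% in mutants and 98.8 ± 0.442% in wild types, and Cplx2, a complexin that binds the fusion machinery, 12.1 ± 3.74% and 9.81 ± 3.17%. Cytoskeleton, motor and axon guidance genes (25 long pairs, median 0.23) held 2 nominally distal pairs and 1 nominally proximal pair, Robo2 and Epha5 among them. Kif5a, a kinesin of axonal transport, had 99.2 ± 0.115% in mutants and 99.3 ± 0.219% in wild types.

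RNA-binding regulators (21 long pairs, median -0.19) held 1 of each kind. Celf2, a splicing regulator, had 9.66 ± 0.881% in mutants and 9.17 ± 1.65% in wild types, and Hnrnpul2 88.1 ± 5.04% and 83.0 ± 4.40%. Hnrnpr, a nuclear ribonucleoprotein with sites 18765 bases apart, had 32.1, 24.9, 34.7, 33.0 and 35.2% in mutants, against 39.4, 43.5 and 38.9% in wild types, with the groups apart and mutant 5 the highest mutant (log2 change -0.55, SE 0.229). In the list of cleavage and polyadenylation machinery (9 long pairs, median 0.22), Rprd2 was the 1 nominally distal pair and 0 were nominally proximal. Neither Cstf2 nor Fip1l1 was nominal in usage. Cstf2 itself is a long pair, with sites 2361 bases apart, and its distal site held 97.8, 98.4, 98.3, 97.9 and 97.6% of reads in mutants, against 97.1, 97.9 and 97.5% in wild types. A coding substitution need not change this share, so it does not check the labels. Fip1l1, which links the polyadenylation signal complex to poly(A) polymerase, had 96.7 ± 0.119% in mutants and 96.3 ± 0.430% in wild types. Rprd2, a protein that binds the tail of RNA polymerase II, had 31.8, 23.1, 29.4, 25.9 and 10.6% in mutants, against 7.61, 9.30 and 15.6% in wild types (log2 change 1.36, SE 0.451), and had a value of -0.0634 with the cerebellar covariate.

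The ubiquitin system (44 long pairs, median 0.19) held 1 nominally distal and 5 nominally proximal pairs. Psma2, a proteasome core subunit, had 12.8, 11.5, 10.5, 22.5 and 23.3% in mutants, against 27.4, 26.4 and 21.5% in wild types (log2 change -0.88, SE 0.339). Psmb4, another core subunit, had 0.252 ± 0.0829% in mutants and 0.0866 ± 0.0718% in wild types, but a listed site of Pogz lies between its 2 sites and the distance exceeds the gene's span. Usp15, a deubiquitinating enzyme, had 63.5, 60.3, 71.6, 68.7 and 70.1% in mutants, against 74.5, 74.3 and 75.9% in wild types (log2 change -0.55, SE 0.244). In Usp15 the groups were apart and mutant 5 lay within the range of the other mutants.

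Kinases and phosphatases (38 long pairs, median 0.30) held 4 nominally distal and 2 nominally proximal pairs. Camkk2, which activates calmodulin-dependent kinases, had 20.3 ± 6.54% in mutants and 16.3 ± 5.99% in wild types, and Mapk10, the neuronal kinase JNK3, 5.33 ± 2.47% and 2.81 ± 1.77%. Its relative Mapk8, the kinase JNK1, had 22.5, 23.8, 24.5, 22.4 and 20.7% in mutants, against 14.3, 12.7 and 19.8% in wild types (log2 change 0.69, SE 0.209). In Mapk8 every mutant lay above every wild type.

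Small GTPases and their regulators (31 long pairs, median 0.04) held 3 nominally distal pairs and 1 nominally proximal pair. Rgs7bp is 1 of the 3, taken in by its symbol although it is not itself a small GTPase. Rab6b, a Golgi GTPase of neurons, had 86.8 ± 0.877% in mutants and 89.7 ± 2.99% in wild types, and Arhgef17, a guanine nucleotide exchange factor, 20.3 ± 4.13% and 24.9 ± 0.498%. Rap2a, a Ras-like GTPase, had 73.2, 74.1, 69.3, 77.6 and 54.6% in mutants, against 45.2, 29.5 and 65.7% in wild types (log2 change 1.43, SE 0.489). Transcription and chromatin regulators were the largest list (103 long pairs, median 0.05), with 7 nominally distal and 4 nominally proximal. Zbtb1, a zinc finger protein, had 99.6 ± 0.0928% in mutants and 99.7 ± 0.00555% in wild types, and Tcf4, a basic helix-loop-helix factor, 23.5 ± 2.76% and 24.1 ± 0.897%. Zfp654, a zinc finger protein with a mean of 54.6 reads, had 62.7, 64.2, 78.3, 59.7 and 52.3% in mutants, against 42.6, 47.3 and 45.5% in wild types. Klf7, a Krüppel-like factor, had 58.5 to 81.6% in mutants and 46.7 to 67.5% in wild types (log2 change 1.11, SE 0.446).

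Solute carriers (33 long pairs, median -0.18) held 2 of each kind. Slc1a2, the main glutamate transporter of astrocytes, had 99.2, 99.1, 98.6, 99.0 and 96.7% in mutants, against 96.0, 96.8 and 98.9% in wild types. Slc24a2, an exchanger of sodium for calcium and potassium, had 99.7 ± 0.173% in mutants and 99.9 ± 0.0714% in wild types. Slc25a32, a mitochondrial folate carrier with a mean of 47.6 reads, had 91.7, 89.6, 80.3, 89.9 and 77.1% in mutants, against 75, 75 and 71.0% in wild types. Of the oligodendrocyte markers 3 were long pairs, Ugt8a, Gpr17 and Mobp, with 1 nominally distal and 1 nominally proximal. Gpr17, a receptor of differentiating oligodendrocyte precursors, had 0.935, 1.01, 2.32, 2.23 and 3.91% in mutants, against 5.16, 9.95 and 1.83% in wild types (log2 change -1.41, SE 0.621), opposite to Ugt8a. Among cerebellar markers Cbln3, Zic1, Car8 and Calb1 were long pairs, with none at an unadjusted p under 0.05 in usage, and of neuron and astrocyte markers Map2 and Slc1a2 were. Microglia, endothelial and pericyte, and choroid plexus and ependyma markers had 0 long pairs. Each role list held at most 7 nominal pairs in either direction. The role lists ranged from 9 to 103 long pairs, so these counts are not comparable with each other as they stand. Of all tested pairs 8.67% were nominally distal and 4.25% nominally proximal, and no list was tested against these shares. Of the 13 pairs named after their values were seen, 12 had a change nearer to 0 with the cerebellar covariate, and 12 moved by over 1.5 times. The log2 change was then -0.27 for Gabrg1, 0.41 for Rap2a, -0.36 for Usp15, -0.35 for Hnrnpr, 0.40 for Zfp654 and 0.26 for Slc25a32. It was -0.42 for Rnf103, -0.16 for Stxbp5l, -0.42 for Gpr17 and 0.14 for Klf7, and for Rprd2 it turned sign to -0.06. Mapk8 (0.51) moved less, and Kcnn3 (-1.98) lay farther from 0. Since the 13 were chosen by their values without the covariate, these moves are not an independent result, and their cause was not tested.

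The 4 pairs beyond 50000 bases were examined apart. The sites of Rnaset2b, a ribonuclease, are listed 1118920 bases apart, with the distal one upstream of the proximal one on the gene's strand. Those of Kcna1, a potassium channel of axons, are 87149 bases apart and those of Tgtp2, an interferon-induced GTPase, 71867, and in all 3 genes the distance exceeds the span of the whole gene. Whether these positions belong to 1 transcript was not tested. In RefSeq, Kcna5 and Kcna6 are the genes next to Kcna1, and Tgtp1, of the same family, lies near Tgtp2 with 1 gene between them. The sites of Atxn7l1, 124672 bases apart, fall within its gene's length.

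None of the 4 had an unadjusted p under 0.05 in usage. Rnaset2b had distal shares of 44.3, 41.0, 47.3, 44.8 and 42.6% in mutants, against 42.0, 45.3 and 41.1% in wild types. Its 2 sites thus held nearly even shares in every library although its level varied, with 86 to 312 distal reads in mutants and 86 to 209 in wild types. Kcna1 had 11.4, 11, 10.7, 12 and 16.2% in mutants, against 12.8, 14.3 and 13.8% in wild types. Tgtp2 had 50.0 to 64.5% in mutants and 61.0 to 66.0% in wild types on 24 to 56 reads, and Atxn7l1 35.5 to 48.0% and 35.4 to 45.5%. The groups overlapped in each of the 4.

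At 10001 to 50000 bases, 6 pairs were nominally distal and 6 nominally proximal, or 7.14% each, beside 8.67% and 4.25% of all tested pairs. Rnf103, a membrane-bound ubiquitin ligase with sites 26989 bases apart, had 6.71, 12.6, 16.1, 5.13 and 24.8% in mutants, against 45.6, 50.0 and 12.9% in wild types, and its distance exceeds the gene's span. Stxbp5l, a relative of tomosyn that binds syntaxin, has sites 23567 bases apart within a much longer gene. It had 25.5, 33.3, 49.1, 31.9 and 52.7% in mutants, against 66.7, 58.1 and 45.4% in wild types, and the whole exon held 2.02 times the pair's reads. In both, mutant 5 lay within the wild-type range and wild type 3 within the mutant range. Focad with Hacd4, St7l with Wnt2b and Mcts2 with H13 are examples of pairs that enclose a listed site of another gene.

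Pairs on either side of the distance limit were compared by value only. Just inside it, 3110040N11Rik at 2001 bases had 89.1 ± 4.85% in mutants and 93.5 ± 2.81% in wild types, and Bnip3, a mitochondrial protein of cell death, at 2003 bases had 15.1 ± 2.04% and 13.7 ± 2.01%. Just outside, Prr5l at 2000 bases had 29.7 ± 2.78% in mutants and 29.4 ± 5.67% in wild types. Klf16 at 1998 bases had 1.39 ± 0.517% and 1.46 ± 0.123%, and Abat, the enzyme that degrades GABA, at 1997 bases had 98.5 ± 0.427% and 98.1 ± 0.374% (SD, n = 5 and 3 throughout).

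The level of the long pairs, taken as the sum of both sites, was tested as well. edgeR called none of the 1760 (background 0%), with 139 higher and 116 lower at an unadjusted p under 0.05, or 7.90% and 6.59% beside 7.29% and 7.05% of all pairs. DESeq2 called 9 higher and 0 lower, beside 0.318% and 0.0127% of all pairs. The genotypes did not overlap in 42 pairs toward higher and 47 toward lower levels, or 2.39% and 2.67%, beside 2.45% and 2.31%. The median log2 change was 0.01 over the long pairs and 0.01 over all pairs, which the scaling centres near 0, and upper quartile scaling put that of the long pairs at -0.01.

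The 5 long pairs with the smallest p toward a higher level in mutants were called by DESeq2 but not by edgeR. Wwtr1, the coactivator TAZ of the Hippo pathway, stood at 2.72, 2.54, 2.23, 2.80 and 2.04 log2 CPM in mutants, against 1.39, 1.25 and 1.48 in wild types (log2 change 1.17, SE 0.232, DESeq2 adjusted p = 0.0322, edgeR adjusted p = 0.343). Ddx19b, a helicase of mRNA export, stood at 4.14, 4.28, 3.86, 4.43 and 3.46 in mutants, against 2.68, 2.44 and 3.38 in wild types. In both, mutant 5 was the lowest mutant and still above every wild type. Scn4b, a sodium channel subunit, stood at 6.32, 6.24, 5.86, 6.36 and 4.95 in mutants, against 4.24, 3.88 and 5.21 in wild types, with wild type 3 above mutant 5. Chst2, a sulfotransferase, averaged 7.95 ± 0.286 in mutants and 7.11 ± 0.334 in wild types, and Prima1, the membrane anchor of acetylcholinesterase, 4.63 ± 0.186 and 3.80 ± 0.379 log2 CPM.

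Distal shares of the same genes are given beside their levels. The distal share of Wwtr1 was 76.5, 78.6, 78.9, 84.4 and 38.6% in mutants, against 50, 24.3 and 50% in wild types, and that of Ddx19b 80.5, 82.8, 71.8, 83.4 and 52.9% in mutants, against 32.1, 13.6 and 64.0% in wild types. Both the share and the level of Wwtr1 rest on few reads, between 22 and 96 per library. For Scn4b the distal share was 94.8 to 99.4% in mutants and 84.4 to 98.0% in wild types, and for Prima1 89.6 to 97.0% and 79.3 to 92.3%. Chst2 ran the other way, with 15.7 to 27.6% in mutants and 26.1 to 46.1% in wild types. Both measures use the same reads.

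The 5 long pairs with the smallest p toward a lower level in mutants were not called by either tool. Plekhf1, an endosomal protein, stood at 1.71, 2.22, 2.13, 1.95 and 2.73 log2 CPM in mutants, against 3.11, 2.86 and 3.21 in wild types (log2 change -0.90, SE 0.23, edgeR adjusted p = 0.343). Decr1, an enzyme of mitochondrial fatty acid oxidation, averaged 5.28 ± 0.247 in mutants and 5.97 ± 0.407 in wild types. Mrpl57, of the mitochondrial ribosome, averaged 6.25 ± 0.234 and 6.83 ± 0.309, and Bloc1s5, of a complex that forms lysosome-related organelles, 6.13 ± 0.14 and 6.61 ± 0.260. Rora, a nuclear receptor needed by Purkinje cells, stood at 7.40, 7.47, 7.67, 7.37 and 8.0 in mutants, against 8.42, 8.14 and 7.97 in wild types. Mutant 5 was the highest mutant in all 5 of these genes. Without mutant 5 edgeR called 7 long pairs higher and 15 lower, the lower ones including the cerebellar markers Cbln3, Car8 and Zic1. That is 0.398% and 0.852% of the long pairs, beside 0.216% and 0.648% of all pairs in the same fit. With the cerebellar covariate edgeR called none and left 4 higher and 4 lower at an unadjusted p under 0.05, or 0.227% each, beside 0.203% and 0.394% of all pairs. All 5 named higher and all 5 named lower changes then lay nearer to 0 by over 1.5 times. Wwtr1 was at 0.68, Ddx19b at 0.55, Chst2 at 0.35, Prima1 at 0.49 and Scn4b at 0.36 on the log2 scale. Plekhf1 was at -0.32, Decr1 at -0.30, Bloc1s5 at -0.24, Rora at -0.14 and Mrpl57 at -0.31. As the fit without the covariate picked these genes, the move is not an independent result, and its cause was not tested.

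**Figure D5:**
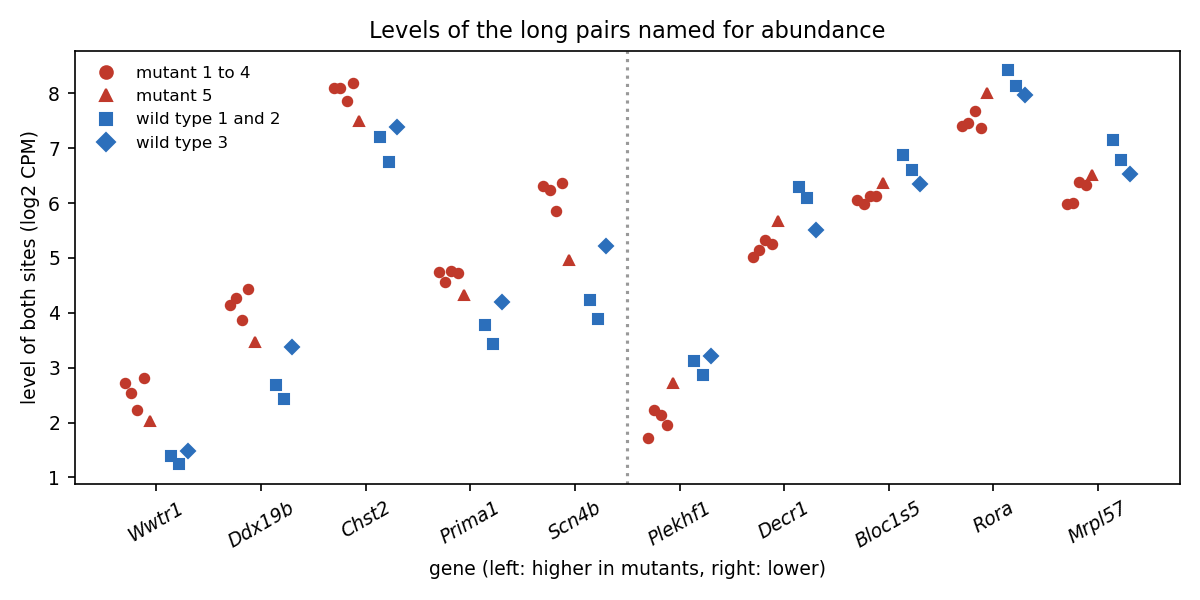
Level of both sites together (vertical axis, log2 CPM) in each library for the 10 long pairs named for abundance, 5 higher in mutants (left of the dotted line) and 5 lower; red symbols are the 5 mutants, blue the 3 wild types. Mutant 5 (triangle) is the mutant nearest to the wild types for each gene, for instance at 4.95 log2 CPM for Scn4b, where wild type 3 has 5.21.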

How the data were processed

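Per the labels' protocols, total RNA of homogenised whole brain was turned into QuantSeq 3′ mRNA-Seq REV libraries. Build mm9 and the tools STAR 2.5, HTSeq 0.6.0 and FastQC 0.11.3 are listed in the submitters' processing notes, without roles. The choice of sites and the handling of internal priming and strand are not given in the sources used here. Counts of overlapping and antisense genes and of near-identical paralogs are therefore uncertain. Per the file headers, the values are raw counts, whole numbers of reads for each of 2 sites, and were taken as deposited. Positions carry no chromosome.

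Samples were grouped by the labelled genotype. Replicate numbers follow accession order, so they pair no samples. Libraries of a genotype differed beyond counting noise (chi-square per degree of freedom 4.97 to 115). The tests set the difference between genotypes against the spread between libraries, in which animal, dissection and library preparation cannot be told apart.

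Testing required 20 reads per library on average and 10 reads at each site in all, which kept 7876 pairs. Usage is the site-by-genotype coefficient of an edgeR quasi-likelihood fit to the reads of both sites, with a term for each library. Abundance is the summed reads of a pair, scaled by TMM. Standard errors were derived from the log2 change and F. Adjustment was by Benjamini-Hochberg over all tested pairs at 0.05. Log2 ratios add 0.5 to each count. Alternatives were DESeq2, limma, other filters, distances and scaling, a cerebellar covariate and leaving out each library. Versions were R 4.3.3, edgeR 4.0.16, limma 3.58.1 and DESeq2 1.42.0. Scripts were tested on simulated data.

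The members, 18 gene lists (11 by role, 7 of cell types) and tests were chosen with earlier results of these data known. Named pairs are, among those averaging at least 50 reads and at most 50000 bases apart, the 10 with the smallest usage p per direction, the 6 with the most reads, the 2 with the most reads per role list and the 5 with the smallest abundance p per direction. The calls of DESeq2 in usage, the pairs beyond 50000 bases and 3 on each side of the limit were added. Another 13 named pairs were chosen after their values were seen. Values of some pairs that these rules name are not reported here. No sequence is shown, since no genome of build mm9 was used. Symbols matched RefSeq for 99.6% of listed genes.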

Additional observations from a re-analysis of the deposited data

Results flagged for a closer look

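In the 5 mutants, single libraries stood far from the other 4 by Dixon's gap test, which flags about 1 in 20 groups by chance. Mutant 5 had a mean cerebellar marker level of 7.68 log2 CPM, against 5.49 to 5.62 in the other mutants. It was also the library apart in the distal share of Jcad (97.3%, others 98.7 to 99.1%), Rpl28 (88.2%, others 93.7 to 95.2%), Hnrnpul2 (79.2%, others 89.2 to 91.9%), Slc1a2 (96.7%, others 98.6 to 99.2%) and Dlgap1 (75.4%, others 88.8 to 93.7%). The same held for Wwtr1 (38.6%, others 76.5 to 84.4%), Scn4b (94.8%, others 98.4 to 99.4%) and Kcna1 (16.2%, others 10.7 to 12%), and for Kcnn3, chosen after its values were seen (38.5%, others 57.7 to 62.7%). For Rpl28, Slc1a2, Dlgap1, Wwtr1 and Scn4b this value lay within the wild-type range. Mutant 4 was apart in Rps12 (0.275%, others 0.471 to 0.495%) and in Chst2 (15.7%, others 25.7 to 27.6%).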

How the results depend on the processing

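Site usage of the long pairs gave 0 calls by edgeR under each filter, distance and left-out library tried, and by limma, and 3 calls by DESeq2. Leaving out each library in turn kept the number of usage calls at 0, but moved the unadjusted counts from 154 and 83 to between 49 and 21 (without wild type 2) and 308 and 184 (without mutant 5). Without wild type 2 these were 2.78% and 1.19%, beside 2.54% and 1.27% of all pairs. Without mutant 5 they were 17.5% and 10.5%, beside 18.7% and 8.98%. Abundance gave 0 calls by edgeR and 9 by DESeq2, and between 0 and 22 when each library was left out, with 22 only without mutant 5 (7 higher and 15 lower, or 0.398% and 0.852%, beside 0.216% and 0.648% of all pairs). Without mutant 5, genotype and cerebellar markers cannot be told apart. Upper quartile scaling gave 117 higher and 150 lower at an unadjusted p under 0.05, against 139 and 116 with TMM. The shares over all tested pairs were not counted with that scaling, so whether this change is particular to the long pairs was not tested. The difference in the median log2 ratio, 0.0789, ranged from 0.0502 without wild type 2 to 0.129 without wild type 3. With the cerebellar covariate the log2 change of Rprd2 was -0.0634, opposite in sign to the fit without it, and the cause was not tested. The covariate brought 9 of the 10 named distal and all 10 named proximal changes nearer to 0, with a median size of 1.09 and 0.65, against 1.78 and 1.58 without it. Both sets were picked by the fit without it, so the move is not an independent result. It was not counted over all tested pairs, and its cause was not tested. No named pair was called by edgeR at the outset, so keeping a side of the threshold says nothing of stability, and 13 alternative tests passed it. The number of animals and, for pairs such as Epha5 or Tgtp2, few reads limit the precision. No paired analysis was possible because the labels give no replicate numbers that the genotypes share.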

Other observations

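The cerebellar markers that are long pairs were measured in usage too. Cbln3 had distal shares of 73.3, 69.2, 70.0, 66.7 and 84.4% in mutants 1 to 5, against 87.4, 82.7 and 82.3% in wild types 1 to 3. In mutants 1 to 4 these rest on 11, 18, 14 and 10 distal reads and 4, 8, 6 and 5 proximal ones, so the shares are imprecise. Zic1 had 95.8 ± 1.62% in mutants and 97.2 ± 1.01% in wild types (SD, n = 5 and 3). Car8 had 61.3 ± 9.95% in mutants and 56.3 ± 4.51% in wild types, and Calb1, a calcium buffer of Purkinje cells, 41.5 ± 4.72% and 32.6 ± 7.48%. None of the 4 had an unadjusted edgeR p under 0.05 in usage.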
